A study of Nicotiana tabacum with 21 samples.

Results

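Only 8 of 69491 tobacco transcripts were more abundant in exponential than in stationary cells of all 3 lines whose libraries in this series covered both growth phases. They were chosen on mean transcript abundance, measured in TPM (reads per base of transcript, scaled to one common total in every library). In each of BY-2H, VBI-0 and VBI-2, a transcript needed a ratio of (exponential mean + 1) to (stationary mean + 1) of at least 1.5 and an exponential mean of at least 5 TPM. The phase ratios given for these 8 transcripts are therefore a description of how they were chosen and carry no test. None of the 8 had a gene name in the sources used here, so they are given by their Nitab4.5 identifiers.

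The study asked how some tobacco suspension lines proliferate without added auxin, and the series analysed here held RNA sequencing of 4 lines in 21 libraries, in 7 groups of 3 replicates. VBI-0 (cultivar Virginia Bright Italia) was auxin-dependent and grew in modified Heller medium with 2,4-D and NAA, whereas the auxin-habituated VBI-2 of the same cultivar grew in Heller medium without auxin. BY-2 (cultivar Bright Yellow 2) was auxin-dependent and grew in Murashige and Skoog medium with 2,4-D, and the auxin-habituated BY-2H grew in this medium without 2,4-D. Cells were harvested at 3 d (exponential) and 10 d (stationary) by the labels. Exponential BY-2 cells were not analysed here, and for stationary BY-2 cells the text of the study gives 7 d. All cultures were kept in the dark and shaken. The study calls the replicates biological, and the labels do not say whether they came from separate cultures, so the tests measure the spread between these libraries.

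BY-2H was sequenced as read pairs of 150 bp by one company and all other groups as single reads of 50 bp by another. For comparisons of BY-2H with another line, the line, the company and the read type cannot be told apart. Estimated reads per library ran from 10545447 to 22564711. No 2 replicates agreed within sampling noise, and the 3 BY-2 libraries stood farthest apart, with a chi-square per transcript of 28.6 to 31.6 between pairs against 2.03 to 8.09 in the other groups.

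A suspension culture of plant cells passes through a short phase of rapid division and growth and then enters a stationary phase, in which division ceases as nutrients and hormones in the medium run down. Auxin is needed for division in most such lines, and habituated lines have come to divide without an external supply. Transcripts that are more abundant in dividing cells commonly include those for DNA replication, mitosis, ribosomes and new cell wall, but whether the 8 transcripts belong to such groups was not analysed here. The study's tables paired 1 of the 8, Nitab4.5_0000007g0170.1, with a RefSeq accession, which was not in the RefSeq gene table used here.

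The 8 transcripts were few, but more than independent lines would give. Among 14402 transcripts with an exponential mean of at least 5 TPM in all 3 lines, 301 passed the ratio in BY-2H, 788 in VBI-0 and 369 in VBI-2. The product of these shares would give 0.422 shared transcripts, so the observed 8 were 19.0 times that number. Over all 69491 transcripts the expected number was 0.176, and over the 49980 with a mean above 0.5 TPM in any group it was 0.339. This product treats every transcript as equally likely to pass. It is no test, and the lines are not unrelated, since VBI-0 and VBI-2 come from the same cultivar.

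The opposite direction was shared far more often. With the same limits for transcripts more abundant in stationary cells, 97 passed in all 3 lines where 1.06 were expected. Of transcripts with an exponential mean of at least 5 TPM in all lines, BY-2H and VBI-0 shared 40 exponential-phase transcripts (16.5 expected), BY-2H and VBI-2 shared 17 (7.71 expected), and VBI-0 and VBI-2 shared 94 (20.2 expected). The VBI pair thus stood farthest above its expected number.

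**Figure D1:**
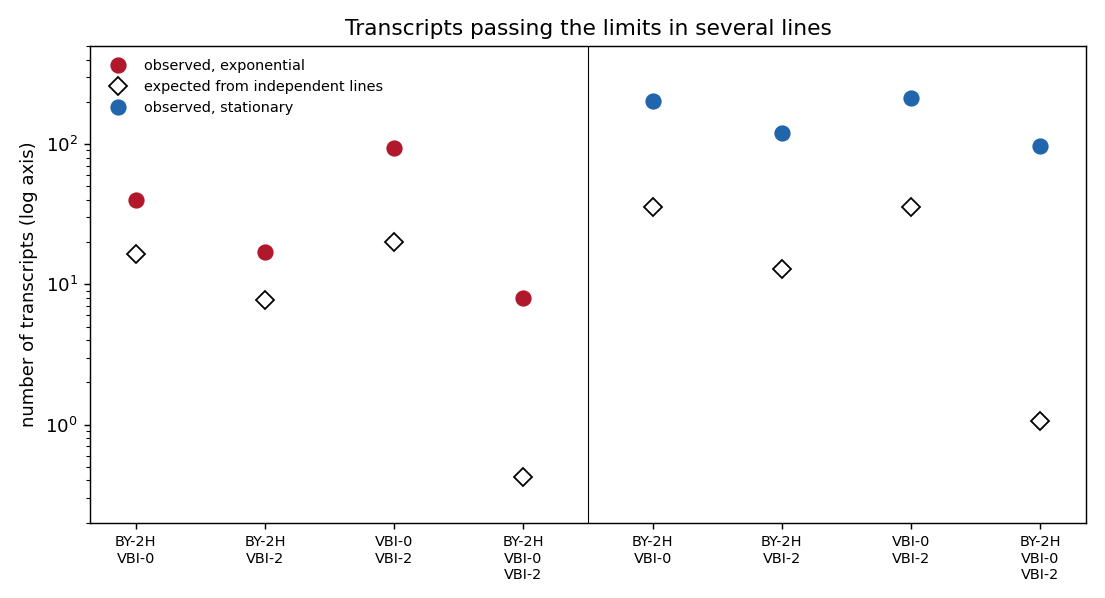
Numbers of transcripts that passed the limits in each pair of lines and in all 3 lines (filled circles; left, more abundant in exponential cells; right, more abundant in stationary cells) and the numbers expected from independent lines (open diamonds), on a log axis, over transcripts whose mean in the phase named was at least 5 TPM in all 3 lines. The 3-line count is 8 against 0.422 on the left and 97 against 1.06 on the right.

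BY-2H was the line in which the ratio was missed most often. Its company and read type cannot be told apart from the line. Of transcripts that met both limits in 2 lines and the level limit in the remaining one, 86 missed the ratio in BY-2H, 32 in VBI-2 and 9 in VBI-0. Choosing transcripts in 2 lines leaves the ratio in the third line without a limit. The exponential mean of that line, one side of its ratio, still had to reach 5 TPM, as for all 14402 transcripts. The 94 transcripts shared by VBI-0 and VBI-2 were higher in exponential cells of BY-2H in 36 cases (38.3%), against 56.5% of all 14402, and their median log2 ratio there was −0.08. In BY-2H, 8 of the 94 passed in the exponential direction (8.51%, against 2.09% of all) and 8 passed in the stationary direction (8.51%, against 2.08% of all). As many transcripts of the VBI pair thus passed against its direction in BY-2H as with it.

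The other choices of 2 lines gave another picture. Of 17 transcripts shared by BY-2H and VBI-2, 8 passed in VBI-0 (47.1%, against 5.47% of all) and 0 passed there in the stationary direction (6.83% of all). Of 40 shared by BY-2H and VBI-0, 8 passed in VBI-2 (20%, against 2.56% of all) and 1 passed in the stationary direction (2.25% of all did). For transcripts more abundant in stationary cells, 97 of the 212 shared by the VBI lines passed in BY-2H (45.8%, against 2.98% of all). In the other direction, 12 of them passed there (5.66%, against 1.33% of all). These shares were computed after the counts were known.

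**Figure D2:**
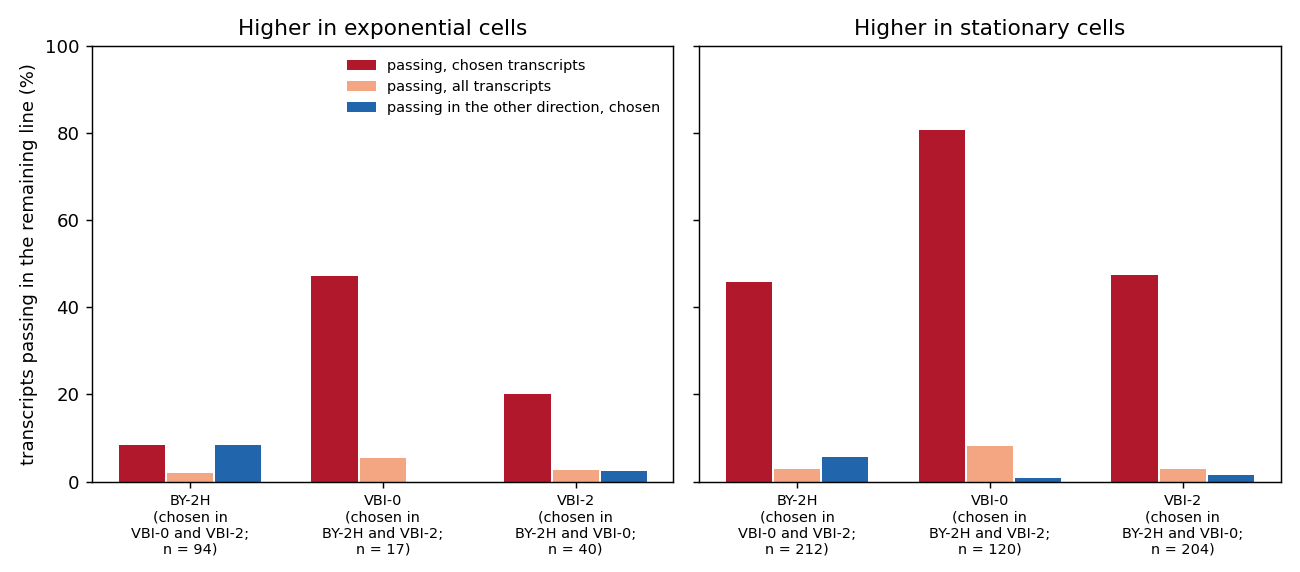
Share of transcripts (%) that passed in the remaining line, for transcripts chosen in the other 2 lines (dark red), for all transcripts with the level limit met (light red), and for chosen transcripts passing in the other direction (blue). The chosen transcripts also met the level limit in the remaining line. In exponential cells the red and blue bars of BY-2H are of one height, 8.51% each.

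Of the 8 transcripts, 7 had exponential libraries that all lay above all stationary libraries in each of the 3 lines. Over the 14402 transcripts, this was so for 17.6% in BY-2H, 18.2% in VBI-0 and 13.3% in VBI-2. Nothing is read from this count, since the same contrasts chose the transcripts. The 8 carried 182 to 1249 bases with a median of 682, against a median of 1115 over the 14402. Salmon, the program that assigned reads to transcripts, shares reads that fit several transcripts, which leaves estimates that are not whole numbers.

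Nitab4.5_0000402g0200.1 (1249 bases) had the largest geometric mean of the 3 ratios. In BY-2H its replicates were at 24.1, 22.2 and 24.9 TPM in exponential and 15.8, 14.1 and 12.7 TPM in stationary cells. In VBI-0 they were at 397, 395 and 360.2 TPM against 31.1, 21.5 and 45.8 TPM. In VBI-2 they were at 17.0, 15.8 and 17.9 TPM against 4.47, 3.21 and 4.96 TPM. The phases did not overlap in any line, and exponential VBI-0 stood far above all other groups of the 3 lines. The ratios were 1.63 in BY-2H, 11.4 in VBI-0 and 3.44 in VBI-2. The VBI-0 ratio was the highest of the 14402 transcripts in that line, and the BY-2H ratio was the lowest of the 8 transcripts there.

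Nitab4.5_0007436g0010.1 (663 bases) was the most abundant of the 8 by its lowest exponential mean, 389 TPM in BY-2H. Its BY-2H replicates were at 397, 355 and 414 TPM in exponential and 234, 227 and 173 TPM in stationary cells. The VBI-0 values were 837, 987.2 and 815 TPM against 226, 221 and 239.9 TPM. The VBI-2 values were 665, 447 and 479 TPM against 342, 243 and 358 TPM. Stationary libraries of the 3 lines lay between 173 and 358 TPM, and every exponential VBI-0 library was above all other libraries of these lines. The ratios were 1.84, 3.83 and 1.69 in BY-2H, VBI-0 and VBI-2. Its estimate was within 0.001 of a whole number in 0 of the 21 libraries, the fewest of the 8.

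Nitab4.5_0012027g0010.1 (695 bases) differed most in level between lines. Exponential BY-2H cells had 9.24, 11.7 and 9.22 TPM and stationary ones 5.91, 5.63 and 1.80 TPM. VBI-0 cells had 1652, 1757 and 1674 TPM against 949.6, 986.4 and 1106 TPM. VBI-2 cells had 116, 63.6 and 49.5 TPM against 27.2, 11.8 and 24.3 TPM. The exponential mean of VBI-0 was 169-fold that of BY-2H, yet the ratio was smaller in VBI-0 (1.67) than in BY-2H (2.03) or VBI-2 (3.51). In VBI-0 it was the 18th most abundant of all transcripts.

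Nitab4.5_0000299g0200.1 (729 bases) responded most evenly. It was at 383, 376 and 364 TPM in exponential and 201, 195 and 163 TPM in stationary BY-2H. It was at 946, 1041 and 952 TPM against 470.1, 429.7 and 597 TPM in VBI-0. It was at 103, 73.5 and 62.1 TPM against 37.7, 30.4 and 43.2 TPM in VBI-2. The ratios were 2.00, 1.96 and 2.11, although the exponential mean differed 12.3-fold between VBI-0 and VBI-2. Its geometric mean ratio was the smallest of the 8.

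Nitab4.5_0000655g0030.1 (483 bases) was at 22.7, 30.0 and 25.98 TPM in exponential and 13.8, 15.5 and 16.6 TPM in stationary BY-2H. Its VBI-0 libraries held 132, 139 and 126 TPM against 35.0, 25.5 and 50.3 TPM. Its VBI-2 libraries held 29.6, 25.9 and 30.0 TPM against 15.2, 16.6 and 16.5 TPM. BY-2H and VBI-2 lay close to each other in both phases, and VBI-0 was higher. The ratios were 1.67, 3.52 and 1.72 in BY-2H, VBI-0 and VBI-2.

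Nitab4.5_0027463g0010.1 (669 bases) was the only one of the 8 whose exponential mean was highest in BY-2H. Its BY-2H libraries held 74.4, 62.0 and 62.3 TPM against 43.5, 41.2 and 26.1 TPM. VBI-0 showed 9.47, 14.5 and 11.3 TPM against 4.43, 3.21 and 3.87 TPM, and VBI-2 showed 13.3, 10.7 and 9.45 TPM against 5.27, 3.18 and 5.71 TPM. The VBI lines overlapped each other in both phases. The ratios were 1.77, 2.64 and 2.12.

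Nitab4.5_0000007g0170.1 (1075 bases) lay just inside the level limit, with an exponential mean of 5.26 TPM in BY-2H. There its libraries held 5.39, 5.17 and 5.21 TPM against 2.84, 3.20 and 2.39 TPM. The VBI-0 libraries held 33.6, 36.7 and 31.4 TPM against 14.98, 12.5 and 13.4 TPM, and the VBI-2 libraries 7.61, 10.1 and 8.42 TPM against 2.08, 3.77 and 3.78 TPM. Both phases were highest in VBI-0, and BY-2H and VBI-2 were near each other. The ratios were 1.64, 2.38 and 2.31.

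Nitab4.5_0000663g0080.1 (182 bases) met the limits on few reads. Its exponential BY-2H libraries held 0, 11.01 and 7.77 TPM and its stationary ones 0, 0 and 3.11 TPM. VBI-0 was at 17.7, 5.68 and 0 TPM against 0 TPM in every stationary library, and VBI-2 was at 10.1, 4.96 and 6.24 TPM against 0, 0 and 9.72 TPM. The phases overlapped in all 3 lines, and no library held more than 5 reads. The group totals were 8 reads against 1 in BY-2H, 5 against 0 in VBI-0 and 4 against 2 in VBI-2. Exact Poisson 95% intervals, which cover counting error only, were 3.45 to 15.8 and 0.0253 to 5.57 in BY-2H, 1.62 to 11.7 and 0 to 3.69 in VBI-0, and 1.09 to 10.2 and 0.242 to 7.22 in VBI-2. The intervals of the phases overlapped in each line, which is no test of a difference. With so few reads, no test of this transcript is given. Without transcripts under 10 reads in any exponential library, 7 remained where 0.311 were expected.

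**Figure D3:**
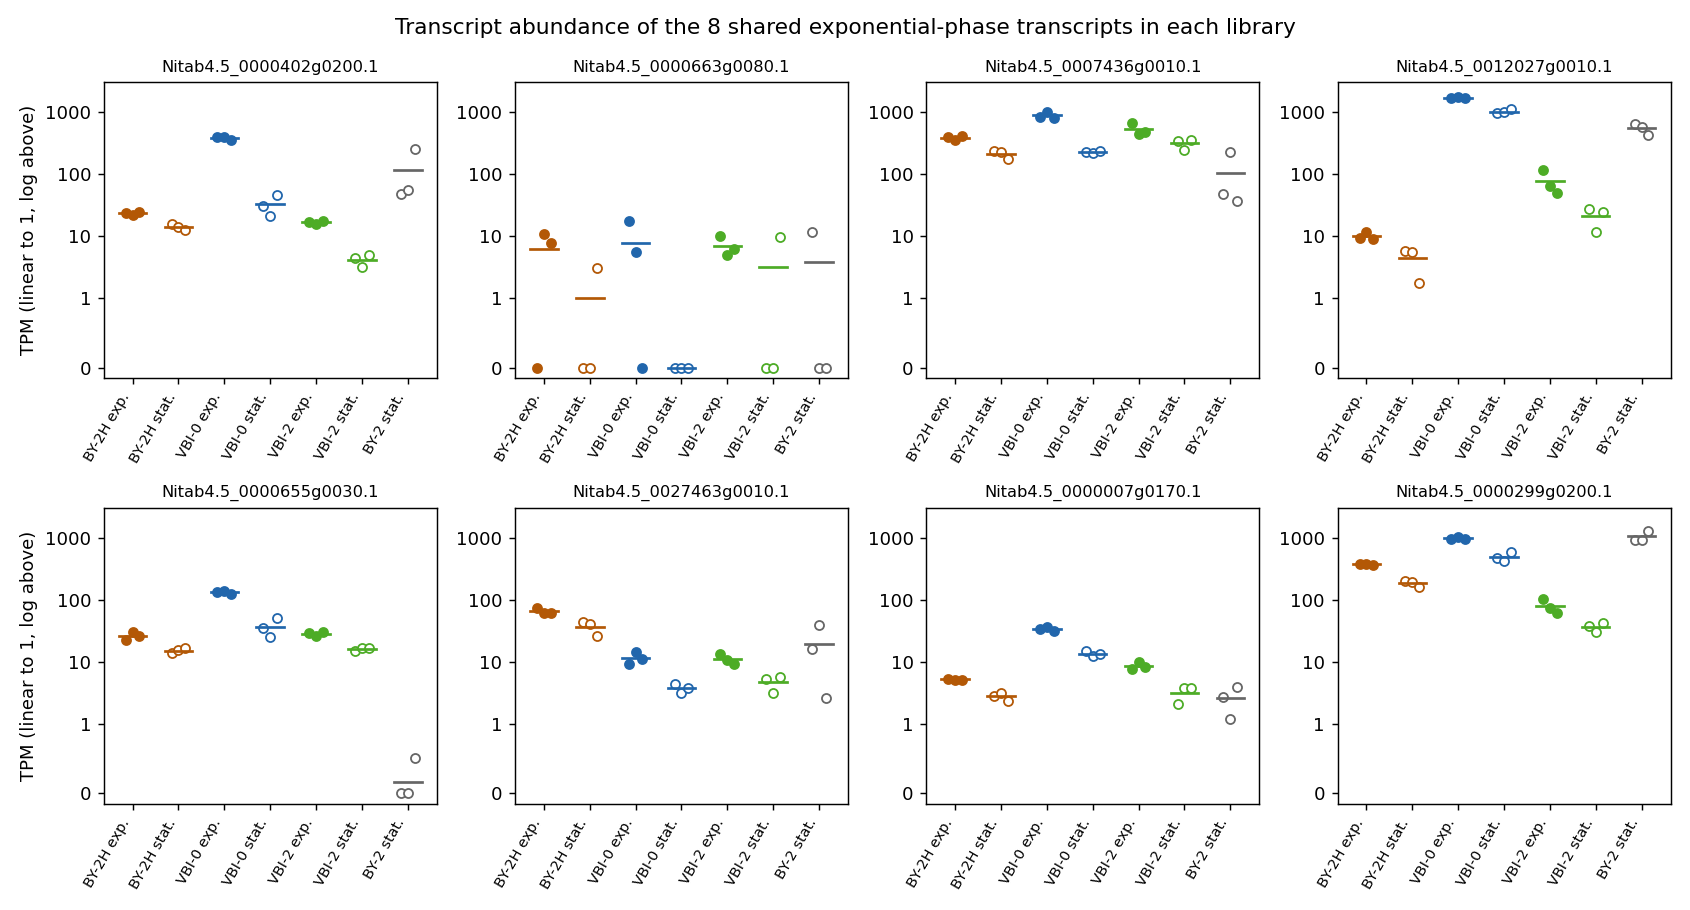
Abundance of the 8 transcripts in each of the 21 libraries (TPM; linear from 0 to 1 and logarithmic above), with filled circles for exponential and open circles for stationary cells, lines for the means, and a colour for each cell line. Exponential libraries lie above stationary ones of their line in 7 panels, and the panel of Nitab4.5_0000663g0080.1 mixes them.

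The size of the response differed between lines. The median log2 ratio of the 8 transcripts was 0.85 in BY-2H, 1.61 in VBI-0 and 1.08 in VBI-2, against 0.03, −0.08 and −0.01 over the 14402 transcripts. Without Nitab4.5_0000663g0080.1, the transcript with few reads, the medians were 0.82, 1.40 and 1.09. The lowest and highest ratios of the remaining 7 were 1.63 and 2.03 in BY-2H. In VBI-0 they were 1.67 and 11.4, whereas VBI-2 had 1.69 and 3.51. For 4 transcripts the order was VBI-0, VBI-2 and BY-2H from largest to smallest, for 2 it was VBI-0, BY-2H and VBI-2, and for 2 it was VBI-2, BY-2H and VBI-0. In edgeR's fits of these contrasts, 1 of the 8 passed an adjusted p of at most 0.05 with a 2-fold limit in BY-2H, 6 in VBI-0 and 5 in VBI-2, against 0.963%, 2.49% and 0.603% of the transcripts tested, and nothing is read from these counts either. Scaling by the trimmed mean of M values (TMM) raised the VBI-0 log2 ratio of every transcript by 0.10 relative to TPM, which moved no member outside the limits and added 2.

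**Figure D4:**
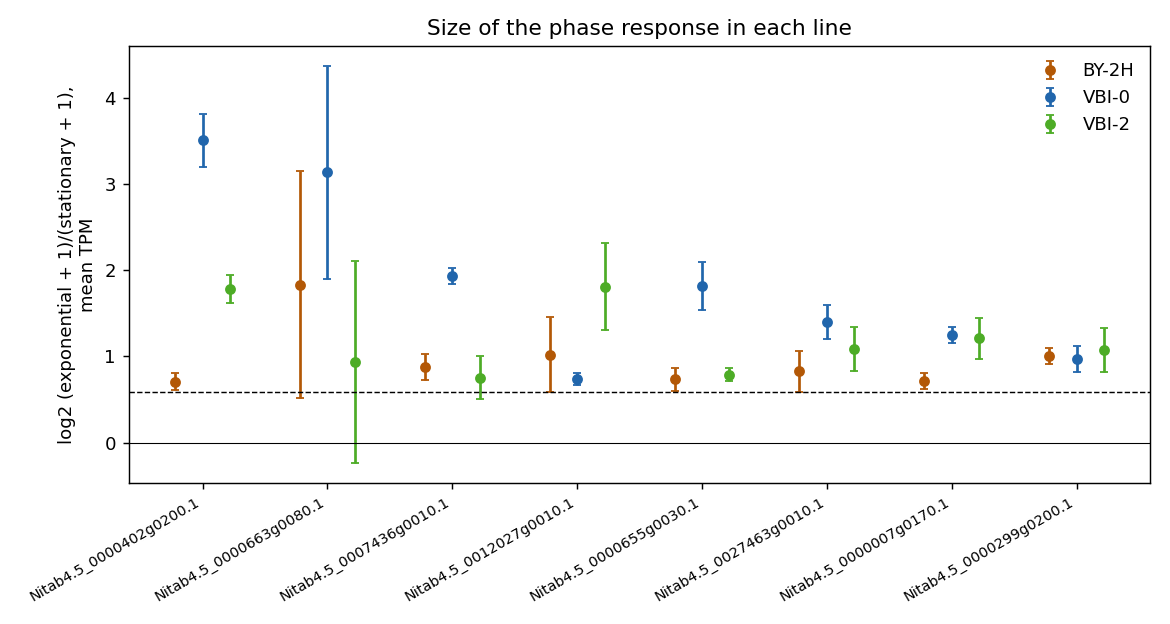
Log2 ratio of exponential to stationary abundance, (mean TPM + 1)/(mean TPM + 1), for the 8 transcripts in BY-2H, VBI-0 and VBI-2, with standard errors from 3 and 3 libraries. The dashed line is the ratio limit of 1.5, and the VBI-0 point of Nitab4.5_0000402g0200.1 stands highest at 3.51.

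The difference between the responses of 2 lines draws on the phase contrasts that chose the transcripts, so it is also given as a description, with the standard error of edgeR's fit and no test. In edgeR's fit the response was larger in VBI-0 than in VBI-2 for 6 of the 7 transcripts with enough reads. For 1 of these, Nitab4.5_0000299g0200.1, the ratio of mean TPM was larger in VBI-2 (2.11 against 1.96). The difference, VBI-2 minus VBI-0, was −1.63 ± 0.27 on the log2 scale for Nitab4.5_0000402g0200.1, −1.30 ± 0.21 for Nitab4.5_0007436g0010.1 and −1.12 ± 0.25 for Nitab4.5_0000655g0030.1. In the fit over 48440 transcripts these 3 were among the 4% whose response was called larger in VBI-0, while 2.82% were called larger in VBI-2, and nothing is read from the count.

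The other differences between the VBI lines were smaller than these or less certain. Nitab4.5_0012027g0010.1 had the only one in the other direction in edgeR's fit, 1.04 ± 0.33. Those of Nitab4.5_0027463g0010.1, Nitab4.5_0000007g0170.1 and Nitab4.5_0000299g0200.1 were −0.44 ± 0.38, −0.12 ± 0.24 and −0.17 ± 0.23.

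Against the mean response of the VBI lines, the response of BY-2H was the smaller one for all 7 transcripts with enough reads. The difference was −2.14 ± 0.21 on the log2 scale for Nitab4.5_0000402g0200.1 and −0.57 ± 0.16 for Nitab4.5_0007436g0010.1, and these 2 were called in the fit over 49706 transcripts, where 4.49% were called with the smaller response in BY-2H and 3.31% with the larger. The remaining 5 differences lay between −0.67 and −0.24. As above, these values describe the transcripts and carry no test.

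The level of the transcripts was compared between the VBI lines, which were sequenced alike. The limits set a floor of 5 TPM on the exponential mean of both lines and used no contrast between lines. In exponential cells, 5 of the 8 were lower in VBI-2 than in VBI-0 by at least 2-fold with an edgeR adjusted p of at most 0.05, and 0 were higher, against 21.5% and 17.1% of the 48440 transcripts tested. DESeq2 called 5 and 0 as well, and 0 were higher at an unadjusted p under 0.05 in edgeR. Nitab4.5_0000402g0200.1 fell by 4.70 ± 0.19 on the log2 scale (edgeR adjusted p = 1.96e-14), Nitab4.5_0012027g0010.1 fell by 4.61 ± 0.25 and Nitab4.5_0000299g0200.1 fell by 3.83 ± 0.18. The difference was −2.36 ± 0.17 for Nitab4.5_0000655g0030.1 and −2.14 ± 0.15 for Nitab4.5_0000007g0170.1. The libraries of the lines did not overlap for any of these 5. The share of all transcripts without overlap between these lines was not computed, so nothing is read from this.

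The same 5 transcripts were lower in stationary VBI-2, and 0 were higher, against 22.3% and 17.7% of all tested in edgeR. The choice asked for a stationary mean that was low beside the exponential one in both lines. The tests between the VBI lines thus share values of both phases with the choice. DESeq2 gave 5 and 0, and 1 was higher in VBI-2 at an unadjusted p under 0.05 without the fold limit. The largest stationary difference was −5.64 ± 0.27 for Nitab4.5_0012027g0010.1 (edgeR adjusted p = 2.83e-13). That of Nitab4.5_0000655g0030.1, −1.24 ± 0.19, became −0.93 without stationary VBI-0 replicate 3 and then fell short of the 2-fold limit. Nitab4.5_0007436g0010.1 was lower in exponential VBI-2 by less than 2-fold (−0.87 ± 0.14), and in stationary cells it was on the other side (0.43 ± 0.15). It passed the 2-fold limit in exponential cells without exponential VBI-2 replicate 1 (−1.06). Nitab4.5_0027463g0010.1 differed little between the lines, by −0.20 ± 0.24 in exponential and 0.24 ± 0.29 in stationary cells.

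Stationary BY-2 was not used to choose the transcripts, and its level was set beside that of BY-2H. The BY-2H libraries of both phases were used. The choice asked for a stationary BY-2H mean that was low beside the exponential one. The tests of BY-2H against BY-2 below share these values with the choice, which can lean them toward calls that are higher in BY-2. Of the 8 transcripts, 3 had a BY-2 mean above both phases of BY-2H, 4 below both and 1 between them. Of the 678 transcripts that met the limits in BY-2H, 25.1% lay above both phases, 60.03% below both and 14.9% between, and nothing particular to the 8 is read from their counts. Mean abundance of the 8 summed to 1843 ± 167 TPM (SD, n = 3) in stationary BY-2, to 901 ± 23.4 TPM in exponential BY-2H cells, 472 ± 64.5 TPM in stationary ones, and to 1829 ± 198 TPM in stationary and 4124 ± 220.4 TPM in exponential VBI-0.

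In edgeR's test of stationary BY-2H against stationary BY-2, 3 of the 8 transcripts were higher in BY-2 and 1 in BY-2H, against 22.8% and 20.3% of 47271 transcripts tested. Nitab4.5_0012027g0010.1 was at 639, 572 and 432 TPM in BY-2, where BY-2H had at most 5.91 TPM (log2 difference, BY-2H minus BY-2, −6.91 ± 0.41, edgeR adjusted p = 4.97e-07). Nitab4.5_0000299g0200.1 was at 932, 913 and 1299 TPM, above every BY-2H library of either phase (−3.07 ± 0.16, edgeR adjusted p = 2.30e-07). Nitab4.5_0000402g0200.1 was at 47.9, 55.5 and 250.0 TPM (−3.47 ± 0.52, edgeR adjusted p = 0.000237), and replicate 3 was far above the other two. All 3 were also among those lower in VBI-2 than in VBI-0. The share of all transcripts called this way in both cultivars was not computed, so nothing is read from this overlap. In the comparison of BY-2H with BY-2, the line, the company and the read type cannot be told apart, and the age may differ. Nothing about auxin supply is therefore read from these 3.

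Nitab4.5_0000655g0030.1 was nearly undetected in BY-2, at 0, 0 and 0.510 TPM from 3 reads in all, while stationary BY-2H held 168 reads. On pooled reads per TPM the level in BY-2H was 92.2-fold that in BY-2, with an exact binomial 95% interval of 31.0 to 451 that covers counting error only (edgeR adjusted p = 7.30e-05). In VBI the same transcript was higher in the auxin-dependent line, so its direction was not shared by the cultivars. Nitab4.5_0007436g0010.1 (47.4, 227 and 37.3 TPM) and Nitab4.5_0027463g0010.1 (16.4, 38.8 and 2.62 TPM) varied widely among BY-2 replicates, with replicate 2 highest for both. Neither passed the test, and both were called higher in BY-2H without BY-2 replicate 2 (log2 differences 2.33 and 1.71). Nitab4.5_0000007g0170.1 was at 2.71, 1.20 and 3.93 TPM in BY-2, overlapping stationary BY-2H, and Nitab4.5_0000663g0080.1 at 11.6, 0 and 0 TPM.

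**Figure D5:**
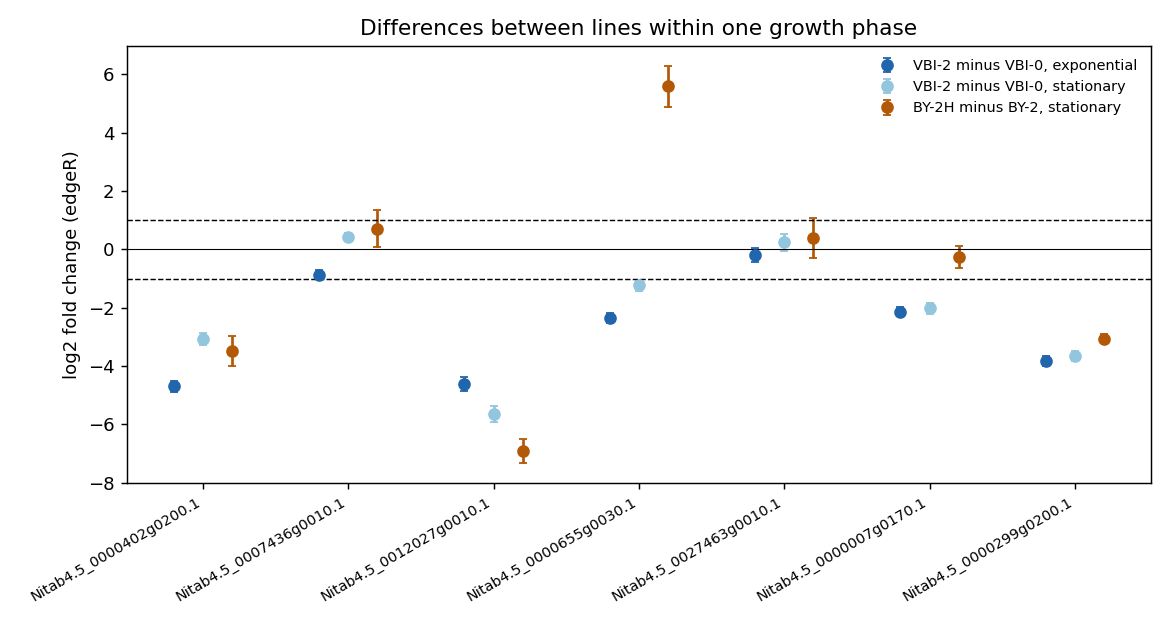
Log2 fold changes between lines within one phase, from edgeR with standard errors, for the 7 transcripts with enough reads; dashed lines mark 2-fold. Points below 0 are lower in the habituated line (VBI-2 or BY-2H); Nitab4.5_0012027g0010.1 lies lowest in stationary BY-2H at −6.91 and Nitab4.5_0000655g0030.1 highest at 5.59, where BY-2 held 3 reads and the fold depends on the prior count.

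None of the 8 transcripts belonged to the 1072 transcripts that the study listed. The lists covered auxin metabolism, transport, receptors and response genes, cell cycle homologs, Polycomb components, line-specific factors and reference genes. The study chose the line-specific factors for very low abundance in every BY-2 and VBI-0 sample. A member needed an exponential VBI-0 mean of at least 5 TPM, so it could not be among these factors. For the other lists, the number expected among 8 transcripts was not computed, and only 1072 of all 69491 were listed. Nothing is therefore read from the absence of the 8 from these lists. Of these lists, the AUX/IAA family of auxin response repressors had 2, 1 and 8 of 50 transcripts passing the exponential limits in BY-2H, VBI-0 and VBI-2. The stationary limits were passed by 3, 11 and 0 of them. Among 30 auxin inactivation transcripts, 1, 5 and 5 passed in the exponential and 3, 3 and 0 in the stationary direction. The 4 homologs of E2Fb, a cell cycle transcription factor, and the 18 Polycomb transcripts had 0 passing in either direction in each line. Of the 2 homologs of SKP2A, an F-box protein of the cell cycle, 0 passed in the exponential direction and both passed in the stationary direction in VBI-0. Over all transcripts, 678, 1444 and 866 passed the exponential limits and 1021, 2825 and 1196 the stationary ones.

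Of the listed transcripts, 4 passed in 2 lines. NtUGT3T, an auxin glucosyltransferase copy, had ratios of 2.51 in VBI-0 and 2.84 in VBI-2 but 1.18 in BY-2H. NtGH3.1bS1, a copy of an enzyme that conjugates auxin to amino acids, had 1.61 and 4.14 in these lines and was below 1 TPM in BY-2H. NtDAO1S, an auxin oxidase copy, had 1.55 in BY-2H and 1.52 in VBI-2 but 0.685 in VBI-0, where the stationary mean was the higher one. The remaining one, without a name, passed in both VBI lines and had a ratio of 0.880 in BY-2H.

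The 8 transcripts lay on 8 different scaffolds, and 3 of them (Nitab4.5_0007436g0010.1, Nitab4.5_0012027g0010.1 and Nitab4.5_0027463g0010.1) were alone on theirs. Transcripts next to the other 5 did not share the response in all lines. On the scaffold of Nitab4.5_0000007g0170.1, which held 42 transcripts, 4 others passed in any line, among them both transcripts that precede it, 1 in VBI-0 (log2 ratio 1.10) and 1 in VBI-2 (0.82). On that of Nitab4.5_0000402g0200.1, which held 26, 3 others passed in a line. On those of Nitab4.5_0000663g0080.1 (22 transcripts), Nitab4.5_0000299g0200.1 (31) and Nitab4.5_0000655g0030.1 (4), 2, 2 and 0 others passed in a line. Over all 69491 transcripts, 2518 passed in 1 line, 223 in 2 and 8 in 3. Nothing is read from the counts on these scaffolds.

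The set depended on where the limits lay. At a ratio limit of 2 it was empty, whereas 48 transcripts more abundant in stationary cells still passed in all 3 lines (0.0436 expected). With the limit lowered by 0.25 there were 45, where 13.03 were expected, which is 3.45 times that number. Just outside the ratio limit, Nitab4.5_0017715g0010.1 had 1.53, 1.61 and 1.42 in BY-2H, VBI-0 and VBI-2. Nitab4.5_0000356g0010.1 had large ratios of 4.77 and 4.88 in the VBI lines at an exponential mean of 3291 TPM in VBI-0, and missed in BY-2H at 1.41. Leaving out each of the 18 libraries in turn gave 7 to 10 transcripts, and 6 of the 8 were in the set every time. Nitab4.5_0000663g0080.1 was lost without exponential BY-2H replicate 2, exponential VBI-0 replicate 1 or stationary VBI-2 replicate 1 or 2 (here replicate numbers as in the labels), and Nitab4.5_0007436g0010.1 without exponential VBI-2 replicate 1.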

How the data were processed

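Reads of 21 libraries were assigned to the tobacco cDNA set with Nitab4.5 identifiers by the authors with Salmon; the labels name Trimmomatic and Salmon 1.3.0, and the study's methods name Rcorrector and Trim Galore for trimming. The estimated counts (of pairs in BY-2H) and TPM values were used as deposited by the authors, without further scaling; Salmon divides a read between all transcripts it matches. Groups came from the labels. The members were chosen on mean TPM with a pseudocount of 1. Estimated counts were rounded and tested in edgeR 4.0.16 (quasi-likelihood, TMM, Benjamini-Hochberg adjustment over all transcripts passing a filter). The filter kept transcripts with a mean above 0.5 TPM in any group and any count in the libraries fitted. Calls needed an adjusted p of at most 0.05 and, except for differences between responses, a 2-fold change (log2 of 1) in either direction. DESeq2 1.42.0, limma 3.58.1 on log2(TPM + 1), no filter, an offset for effective length, one fit of all libraries, a replicate block and leaving out each library were alternatives. The tests were checked on simulated counts. The members and lists were chosen with earlier results of these data known. The rule for named transcripts took the ranks by ratio, level and tests, those near the limits and those the study names; since only 8 members were found, all are given, and the 2 outside the limits and the listed ones were chosen after their values were seen. Product groups and promoter motifs were planned but not analysed here, as 0 of the identifiers were in the RefSeq gene table.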

Additional observations from a re-analysis of the deposited data

Results flagged for a closer look

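In edgeR's fits of the difference between lines, the response to growth phase differed for 3 transcripts in the VBI lines. The log2 difference, VBI-2 minus VBI-0, was −1.63 for Nitab4.5_0000402g0200.1, −1.30 for Nitab4.5_0007436g0010.1 and −1.12 for Nitab4.5_0000655g0030.1. BY-2H differed from the mean of the VBI lines for 2 of these, by −2.14 for Nitab4.5_0000402g0200.1 and by −0.57 for Nitab4.5_0007436g0010.1. The same phase contrasts chose the transcripts, so these differences are values to look at again and not independent findings. For the comparisons with BY-2H, the line, the company and the read type cannot be told apart.

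The call of Nitab4.5_0007436g0010.1 against the VBI lines was lost without any one of 7 libraries, namely each exponential BY-2H replicate, stationary BY-2H replicates 1 and 2, exponential VBI-0 replicate 2 and exponential VBI-2 replicate 1. When all 21 libraries shared the estimate of spread, the call between the VBI lines was kept for Nitab4.5_0000655g0030.1 and lost for the other two.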

How the results depend on the processing

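The number of members moved from 8 to 0 with a ratio limit of 2 or with the lowest exponential library set over the highest stationary one, to 45 with the limit lowered by 0.25 and to 34 with an exponential mean of at least 1 TPM. The expected number was 0.176 over all transcripts, 0.862 with TPM scaled by TMM (10 members) and 0.0959 with a pseudocount of 5 (6 members). A pseudocount of 5 lowered the median response to 0.72 in BY-2H, 1.21 in VBI-0 and 0.74 in VBI-2, and leaving out a library gave 0.73 to 0.96 in BY-2H.

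Members called higher in exponential BY-2H numbered 1, and 0 in the fit of all 21 libraries, 7 without the fold change limit and 0 to 2 with a library left out. In VBI-2 leaving out a library gave 3 to 5 such calls. The response was larger in VBI-2 for 1 member without the filter and for 0 to 1 with a library left out, and larger in VBI-0 for 1 member in the fit of all libraries. The response was larger in the VBI lines than in BY-2H for 1 member with limma, with all libraries or with a fold change limit of 1, and for 1 to 3 with a library left out. Without the limit, 1 member was higher in stationary VBI-2.

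Small differences changed sign. The VBI difference in response became 0.011 for Nitab4.5_0000007g0170.1 with the length offset and ran from −0.29 to 0.013 with a library left out. That of Nitab4.5_0000299g0200.1 became 0.028 with the length offset and 0.075 with limma and ran from −0.43 to 0.016 with a library left out. Against BY-2, Nitab4.5_0000007g0170.1 became 0.15 with limma and ran from −0.50 to 0.022 with a library left out, and Nitab4.5_0027463g0010.1 ran from −0.14 to 1.71, the latter past the test without BY-2 replicate 2. None of the values that changed sign was called.

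Deviations of samples with one replicate number were weakly correlated (−0.15 to 0.17). Samples of different numbers were not set beside these, so whether the numbers pair the libraries was not settled. A replicate block raised the members higher in stationary BY-2H than in BY-2 from 1 to 2, with Nitab4.5_0007436g0010.1 added (log2 difference 1.42), and leaving out a library gave 1 to 3. It changed no other call on the members. The low read count of Nitab4.5_0000663g0080.1 and the spread among BY-2 libraries limit these comparisons.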
